A study of Mus musculus with 12 samples.

Results

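The nuclear-encoded subunits of the mitochondrial respiratory chain were examined in mouse liver 6 h after an overdose of acetaminophen (APAP). Members were chosen by gene symbol and not by their values, as protein-coding genes named *Nduf* a, b, c, s or v with a number, *Sdha* to *Sdhd*, *Uqcr*, *Cox4* to *Cox8*, or *Atp5*. There were 86 such genes among the 45777 in the table, 39 in complex I, 4 in complex II, 8 in complex III, 18 in complex IV and 17 in complex V. Of these, 81 passed the filter on low counts and were tested. The other 5 were the complex IV isoforms *Cox4i2*, *Cox6a2*, *Cox7b2*, *Cox8b* and *Cox8c*, with at most 13 counts in any liver.

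Whole livers of 12 male C57BL/6 mice, aged 10 to 12 weeks by the labels and fasted overnight, were sequenced as poly-A RNA, 3 in each of 4 groups. WT mice and mice labelled Gα12-/- (*Gna12* KO, *Gna12* being the gene of a heterotrimeric G protein α subunit) received vehicle or 300 mg/kg APAP by intraperitoneal injection, so the comparisons ask how APAP and the genotype each bear on the transcripts. The *Gna12* counts, not scaled for library size, did not separate the labels. They were 1193 to 4373 in WT livers and 2472 to 4003 in livers labelled KO. The second genotype is therefore called by its label throughout. The paper describes PCR of tail DNA, liver qRT-PCR for *Gna12* and immunoblots for Gα12 in its WT and *Gna12* KO mice. Total counts were 49737950 to 69566079 per library. The 6 hepatocyte markers summed to 55385 to 94910 TPM (transcript abundance corrected for length and scaled to a fixed total per library) across the 12 libraries.

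The respiratory chain passes electrons from food to oxygen across the inner mitochondrial membrane and uses the energy released to make ATP. Complex I (NADH dehydrogenase) and complex II (succinate dehydrogenase) feed electrons in, complex III (cytochrome bc1) and complex IV (cytochrome c oxidase) pass them on while pumping protons, and complex V (ATP synthase) lets the protons return. Most subunits come from nuclear genes, the core of every complex other than II also needs subunits made from mitochondrial DNA, and complex II is wholly nuclear-encoded and doubles as an enzyme of the citric acid cycle. In liver cells, APAP is oxidized to a reactive quinone imine that binds mitochondrial proteins, and mitochondrial injury is a known step in its toxicity.

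Promoters of 3 of the 4 complex II genes, *Sdha*, *Sdhb* and *Sdhd*, are shown because complex II transcripts carry the main difference described here. RefSeq sequences of GRCm38.p6 from 250 bases before to 50 after the gene start were matched for 69 of the 86 members. Capitals mark matches, on either strand, to the NRF1 motif GCANGCGC, the ETS motif CCGGAAG, the CCAAT box CCAAT and the ERR motif TNAAGGTCA. They were read at chr13:74350191-74350490 (minus strand) for *Sdha*, chr4:140961021-140961320 (plus strand) for *Sdhb* and chr9:50603800-50604099 (minus strand) for *Sdhd*, each 5′ to 3′.
Sdha: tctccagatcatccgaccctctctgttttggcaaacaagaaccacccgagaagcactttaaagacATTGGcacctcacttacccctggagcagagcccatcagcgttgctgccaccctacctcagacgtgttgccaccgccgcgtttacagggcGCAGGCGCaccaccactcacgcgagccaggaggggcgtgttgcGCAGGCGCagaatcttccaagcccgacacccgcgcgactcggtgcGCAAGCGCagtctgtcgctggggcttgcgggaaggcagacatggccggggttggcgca
Sdhb: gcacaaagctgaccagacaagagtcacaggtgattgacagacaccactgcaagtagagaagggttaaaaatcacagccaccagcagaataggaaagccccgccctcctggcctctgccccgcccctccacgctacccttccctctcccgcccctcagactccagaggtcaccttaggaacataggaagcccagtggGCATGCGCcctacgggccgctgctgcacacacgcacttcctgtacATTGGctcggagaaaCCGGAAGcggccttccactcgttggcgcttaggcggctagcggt
Sdhd: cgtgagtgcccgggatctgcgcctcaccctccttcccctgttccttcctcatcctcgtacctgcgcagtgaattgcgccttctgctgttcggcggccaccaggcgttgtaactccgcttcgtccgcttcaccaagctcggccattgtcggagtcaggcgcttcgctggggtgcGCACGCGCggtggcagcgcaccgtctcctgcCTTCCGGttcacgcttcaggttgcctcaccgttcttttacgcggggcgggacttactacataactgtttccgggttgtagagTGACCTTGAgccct
All 3 hold the NRF1 motif, and *Sdha* holds it at 3 places, starting 96, 53 and 8 bases before the start site. The ETS motif is in *Sdhb* and *Sdhd* and the ERR motif in *Sdhd* alone among the 3, and none of them holds the YY1 motif AAGATGG. Over the members, 27 of 69 genes with a promoter (39.1%) held the NRF1 motif against 10.8% of all 27025 such genes, and 17 (24.6%) held the ETS motif against 9.93%. A gene was counted if any of its listed promoters of that length matched. The YY1 motif was in 11 (15.9%) against 7.28%, the CCAAT box in 30 (43.5%) against 41.1% and the ERR motif in 3 (4.35%) against 1.43%. A match of letters is a description and not a bound site. None of the motifs overlap in these 3 windows.

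Levels of the members moved with transcript length to a different degree in each library, and most members are short. In 2 libraries the short members lay highest. The transcript length implied by the deposited units was under 1000 bases for 57 of the 81 tested members, with a median of 568 bases in complex IV, 718 in V, 751 in I, 931.5 in III and 1233.5 in II. In the first WT APAP library, members under 1000 bases lay a median of 0.94 log2 above their mean over the 12 livers and the longer members 0.43, with a Spearman correlation of -0.62 between length and deviation over the 81 members and -0.43 over 12303 genes. Those genes lay at 0.71 and -0.11 log2 by the same lengths, so the longer members were high where longer genes were not. The third vehicle library labelled KO had the same tilt, at 0.40 and 0.21 log2, with correlations of -0.47 and -0.21. All genes lay at 0.24 and -0.02 log2 there. In the other 10 libraries the correlation over members ran from -0.10 to 0.62 and that over all genes from -0.15 to 0.32. Trends of the opposite sign were as steep in some of them, as in the first vehicle library labelled KO, where the correlations were 0.62 and 0.27 and the short members lay at -0.35 log2. The longer members lay at -0.18 log2 in that library and longer genes of every kind at 0.01. The first WT APAP library also held 28806 TPM of erythroid transcripts against 657 to 1560 in the other 11, and 234 TPM of neutrophil transcripts against 0.828 to 51.8. What part the erythroid and neutrophil RNA had in the values below was not tested. The calls over both labels, the complex medians and the complex II ratio on TPM are given with and without both libraries. Unless stated, the other sums, ratios and fold changes are given with all libraries only and may change without these.

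**Figure D1:**
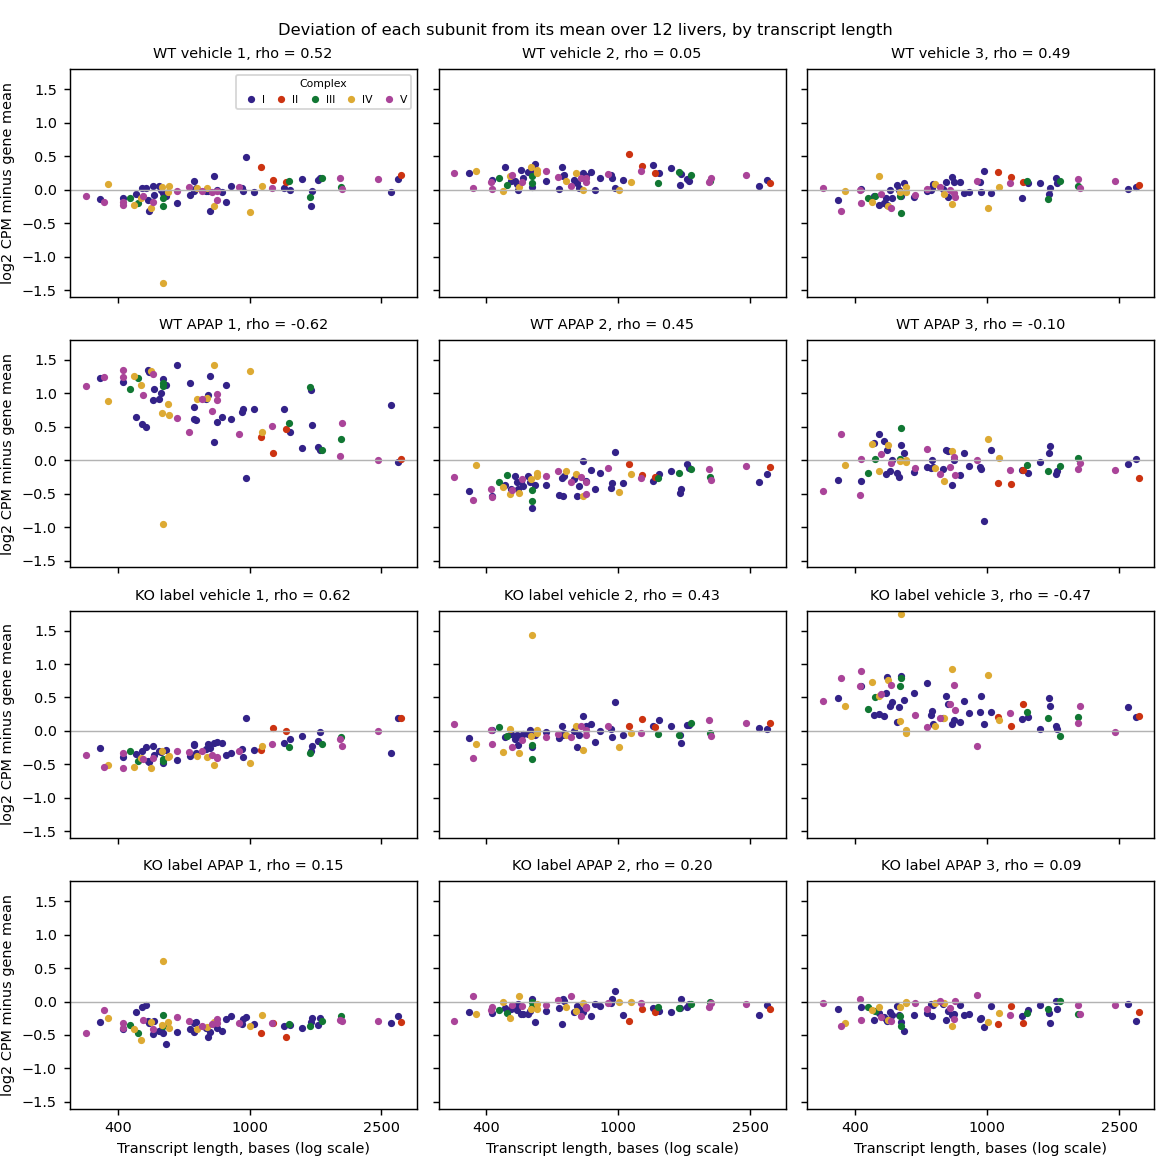
Deviation of each tested member from its mean over the 12 livers (log2, vertical) against its implied transcript length (bases, log axis), with 1 panel per liver and colours for complexes I to V. The cloud slopes down in the first WT APAP liver (rho -0.62) and in the third vehicle liver labelled KO (rho -0.47), where short members lie high, and 7 points, all *Cox6b2*, lie outside the axis.

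The complexes stood in the same order by group mean in all 4 groups. On TPM the 86 members summed to 17234 ± 1050 in WT vehicle livers (SD, n = 3), 17584 ± 1802 in WT APAP livers, 17612 ± 957 in vehicle livers labelled KO and 17779 ± 1119 in APAP livers labelled KO. These TPM totals, in which a rise of some genes lowers the others, differed by less than their spread. On CPM (counts scaled for library size and composition by TMM, with no length correction) the sums were 10006 ± 624, 10738 ± 3912, 9744 ± 1795 and 8388 ± 760.3 in the same order, lowest in the APAP livers labelled KO. Over the 12 livers the summed TPM was 5170.1 to 6031 for complex V, 4527 to 5849.8 for complex I, 3578 to 4932 for complex IV, 1852 to 2507 for complex III and 587 to 985 for complex II. Over livers the ranges of complexes V and I overlap and so do those of I and IV, while those of III and II are apart from the rest and from each other. The highest members were *Atp5b*, the catalytic β subunit of ATP synthase, at a mean of 849 TPM, and *Ndufa4* at 765 TPM, followed by *Atp5a1* at 556 TPM and *Cox4i1* at 541 TPM. *Ndufa4* is counted with complex I by its symbol, although its product is now placed in cytochrome c oxidase.

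**Figure D2:**
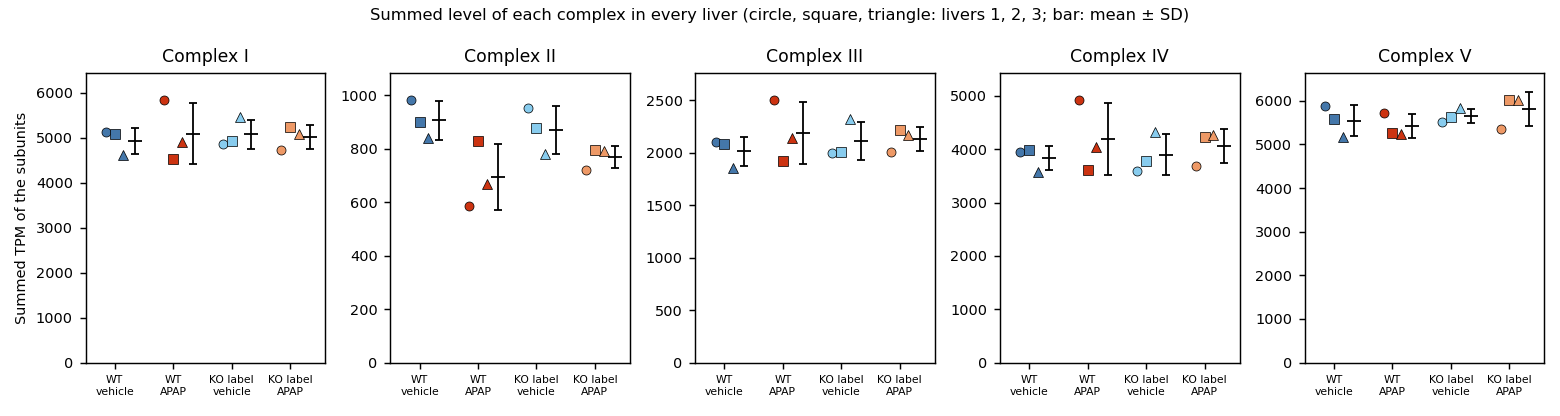
Summed TPM of the members of each complex (vertical axis from 0) in each of the 12 livers, by group, with points for livers and error bars for the group mean ± SD. Complexes I, III, IV and V overlap between vehicle and APAP livers under both labels, while the complex II sums in WT livers are 839.7 to 985 TPM with vehicle and 587 to 829 TPM after APAP.

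The 4 transcripts of complex II summed to 985, 899 and 839.7 TPM in the WT vehicle livers and to 587, 829 and 670.2 TPM in the WT APAP livers. Every WT APAP liver was below every WT vehicle liver. Under the KO label the sums were 955, 878 and 779 TPM with vehicle and 722, 797 and 791 TPM after APAP, which overlap. On CPM the order of the labels turned, with no overlap under the KO label (811 to 930 against 597 to 703 CPM) and overlap in WT (863 to 942 against 653 to 904 CPM). The ratio of APAP to vehicle means was 0.766 in WT and 0.884 under the KO label on TPM, and 0.837 and 0.764 on CPM. Without the 2 libraries named above it was 0.826 and 0.840 on TPM. For the other complexes the ratio on TPM lay between 0.977 and 1.09 in WT and between 0.986 and 1.04 under the KO label. On CPM it lay between 0.995 and 1.27 in WT and between 0.841 and 0.886 under the KO label. There all 5 complexes were below 1 and complex II was the lowest. In complexes I, III, IV and V the highest CPM sum in WT was that of the first APAP library. Under the KO label it was that of the third vehicle library. For complex IV the WT sums were 1403, 1670 and 1433 CPM with vehicle and 3027, 1192 and 1507 after APAP. Under the KO label they were 1125, 1399.5 and 1982 against 1155, 1416 and 1380 CPM. Ratios of these complexes without the 2 libraries are not given here. The share of complex II in the members' TPM was 5.26% ± 0.18 with vehicle and 4.02% ± 1.07 after APAP in WT livers, and 4.97% ± 0.75 and 4.33% ± 0.04 under the KO label (SD, n = 3 each). In whole liver, fewer cells of a type and less RNA per cell cannot be told apart.

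Over both labels, 4 of the 81 tested members were lower after APAP and 0 were higher by the edgeR quasi-likelihood test at an adjusted p under 0.05, where 11.7% of the 16112 genes tested were lower and 14.0% higher. At an unadjusted p under 0.05 there were 6 lower and 0 higher members, against 37.4% of all genes in either direction. The 4 were *Sdha*, *Sdhb*, *Sdhc* and *Ndufs1*. The first 3 are subunits of complex II, and *Ndufs1* is the largest subunit of complex I.

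*Sdha* (chr13:74322255-74350240, mm10) encodes the flavoprotein that oxidizes succinate. Its CPM were 405, 372 and 366 in WT vehicle livers and 353, 325 and 289 after APAP, and under the KO label 398, 379 and 407 with vehicle and 281, 322 and 311 after APAP. The groups did not overlap under either label, and the log2 fold change over both was -0.31 ± 0.09 (SE, adjusted p = 0.029). Within labels it was -0.23 ± 0.18 in WT (adjusted p = 0.54) and -0.37 ± 0.12 under the KO label (adjusted p = 0.068). On TPM the groups overlapped under both labels, at 189.9 to 245 against 123 to 212 in WT and 190.2 to 274 against 193 to 206 under the KO label.

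*Sdhb* (chr4:140961271-140979198) encodes the iron-sulfur protein that carries electrons from the flavin towards ubiquinone. Its TPM were 312, 303 and 262 in WT vehicle livers and 181, 257 and 186 after APAP, and 231, 250.1 and 221 against 202, 214 and 213 under the KO label. Neither label overlapped on TPM. On CPM the WT livers overlapped, at 194, 224 and 185 with vehicle against 196, 148 and 122 after APAP, and those labelled KO did not, at 127, 162 and 179 against 110.5, 126 and 121. The log2 fold change over both labels was -0.38 ± 0.13 (adjusted p = 0.047), with -0.36 ± 0.22 in WT (adjusted p = 0.44) and -0.38 ± 0.15 under the KO label (adjusted p = 0.11).

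*Sdhc* (chr1:171129157-171150640) and *Sdhd* (chr9:50596340-50603849) encode the membrane anchors that hold the ubiquinone site. *Sdhc* CPM were 119.7, 138 and 123 in WT vehicle livers and 116, 93.0 and 84.0 after APAP, and 111, 122 and 113 against 86.1, 99.7 and 103 under the KO label, with no overlap under either. Its log2 fold change over both labels was -0.32 ± 0.10 (adjusted p = 0.036). *Sdhd* did not pass over both labels, at -0.30 ± 0.15 (adjusted p = 0.16). Its CPM in WT livers were 188, 207 and 189 with vehicle and 239.9, 146 and 158 after APAP, the high value being that of the first WT APAP library. Under the KO label they were 175, 181 and 230.4 against 119.8, 156 and 139.8, with no overlap and a log2 fold change of -0.49 ± 0.16 (adjusted p = 0.060). On TPM the *Sdhd* groups overlapped under neither label, at 253, 235 and 224 against 186, 212 and 201 in WT and 267, 235 and 239 against 184, 222 and 206 under the KO label.

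**Figure D3:**
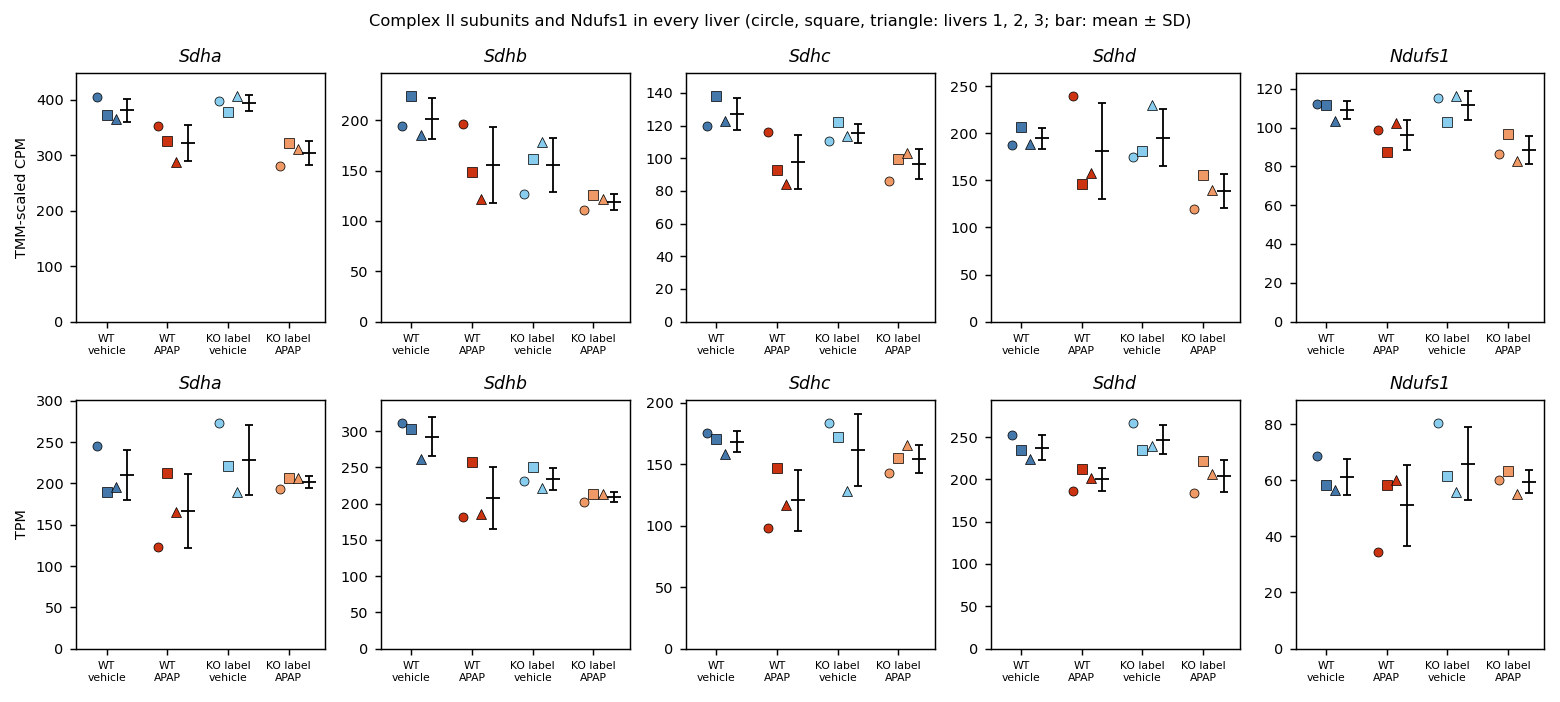
CPM (upper panels) and TPM (lower panels) of *Sdha*, *Sdhb*, *Sdhc*, *Sdhd* and *Ndufs1* in each liver by group, with error bars for the group mean ± SD. On CPM, *Sdha*, *Sdhc* and *Ndufs1* do not overlap between vehicle and APAP under either label, and on TPM *Sdhb* and *Sdhd* do not.

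*Ndufs1* (chr1:63143592-63176822) encodes the iron-sulfur subunit at the electron entry end of complex I. Its CPM were 112, 111 and 104 in WT vehicle livers and 98.6, 87.3 and 102 after APAP, and 115, 103 and 116 against 86.4, 96.7 and 82.6 under the KO label. The groups did not overlap under either label, and the log2 fold change over both was -0.26 ± 0.09 (adjusted p = 0.047). On TPM they overlapped under both, at 56.4 to 68.5 against 34.5 to 60.2 in WT and 55.7 to 80.5 against 55.1 to 63.2 under the KO label. Members lower without overlap on CPM under both labels were *Sdha*, *Sdhc*, *Ndufs1* and *Atp5a1*, 4 of 81, against 7.09% of all genes tested.

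The 4 calls stood close to the threshold, and their number moved with single libraries. With 1 liver left out at a time, 0 to 8 members were called lower over both labels. The share of all genes called in each alternative fit is not given. A change in these counts is therefore not read as a change particular to the members. None was called without the first WT vehicle liver, the third WT APAP liver, the second or the third vehicle liver labelled KO, or the first or the third APAP liver labelled KO. *Sdha* was the single call without the second or the third WT vehicle liver, the second WT APAP liver or the second APAP liver labelled KO, and *Sdhb* and *Sdhc* were called without the first vehicle liver labelled KO. Without the first WT APAP liver there were 8, *Sdha* to *Sdhd*, *Ndufs1*, *Ndufs7*, *Ndufa9* and *Ndufb10*, and all 81 members lay below 0. Without both that library and the third vehicle library labelled KO, the 4 complex II genes and *Ndufs7* were called, at -0.33 ± 0.09 for *Sdha* (adjusted p = 0.021), -0.42 ± 0.12 for *Sdhb* (adjusted p = 0.025), -0.39 ± 0.10 for *Sdhc* (adjusted p = 0.016) and -0.36 ± 0.09 for *Sdhd* (adjusted p = 0.019). There *Ndufs1*, at -0.25 ± 0.09, did not pass (adjusted p = 0.064). With each library's length trend removed, 7 were called, the 4 complex II genes with *Ndufs1*, *Ndufs5* and *Ndufb10*. DESeq2's Wald test called 5, the 4 of edgeR and *Atp5a1*, and limma on log2(TPM + 1) called 6, the 4 complex II genes with *Ndufs1* and *Ndufa4l2*.

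Within WT livers alone, 0 members were called higher and 0 lower by edgeR, against 1.62% and 0.427% of the 15693 genes tested. At an unadjusted p under 0.05 the count was also 0, against 18.0% of all genes, and DESeq2 and limma called 0 (limma on log2(TPM + 1) had 3 lower members at an unadjusted p under 0.05). On CPM 5 members, *Ndufs1*, *Sdha*, *Sdhc*, *Atp5a1* and *Atp5b*, were lower in every APAP liver than in any vehicle liver, against 11.9% of all genes, and 0 were higher, against 12.9%. In livers labelled KO, edgeR also called 0 higher and 0 lower, against 13.0% and 9.60% of 15665 genes. At an unadjusted p under 0.05, 5 members were lower and 0 higher, against 37.1% of genes in either direction. DESeq2 called *Sdha* and *Sdhd* lower, limma on log2(TPM + 1) called *Sdhd*, and edgeR with the length trend removed called *Ndufa6*, *Sdha* and *Sdhd*. The share of all genes called in these other fits is not given, so their calls are not read as particular to the members. In livers labelled KO 9 members, the 4 of complex II among them, were lower without overlap on CPM, against 21.1% of genes, and 0 were higher, against 21.8%.

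By complex, the median log2 fold change in WT livers was 0.18 for complex I, -0.30 for II, 0.37 for III, 0.24 for IV and 0.22 for V, where all genes tested had a median of 0.03. Of the 81 members 62 lay above 0 and 19 below. For livers labelled KO the medians were -0.25, -0.37, -0.21, -0.22 and -0.20 in the same order, with all genes at -0.02, and 79 members lay below 0. Complex II had a negative median under both labels and the other 4 complexes under the KO label alone. Over both labels the complex II median was -0.31, against -0.03 for I, 0.06 for III, 0.04 for IV and 0.03 for V. Smaller sets of members also had negative medians under both labels. The 7 core subunits of complex I had -0.16 in WT livers, -0.22 under the KO label and -0.16 over both. The 4 longest members, *Sdha* among them, had -0.20, -0.28 and -0.23 in the same order. The 20 others of at least 1000 bases, which include *Sdhb*, *Sdhc* and *Sdhd*, had -0.03, -0.19 and -0.11. A negative median is therefore not read as particular to complex II.

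**Figure D4:**
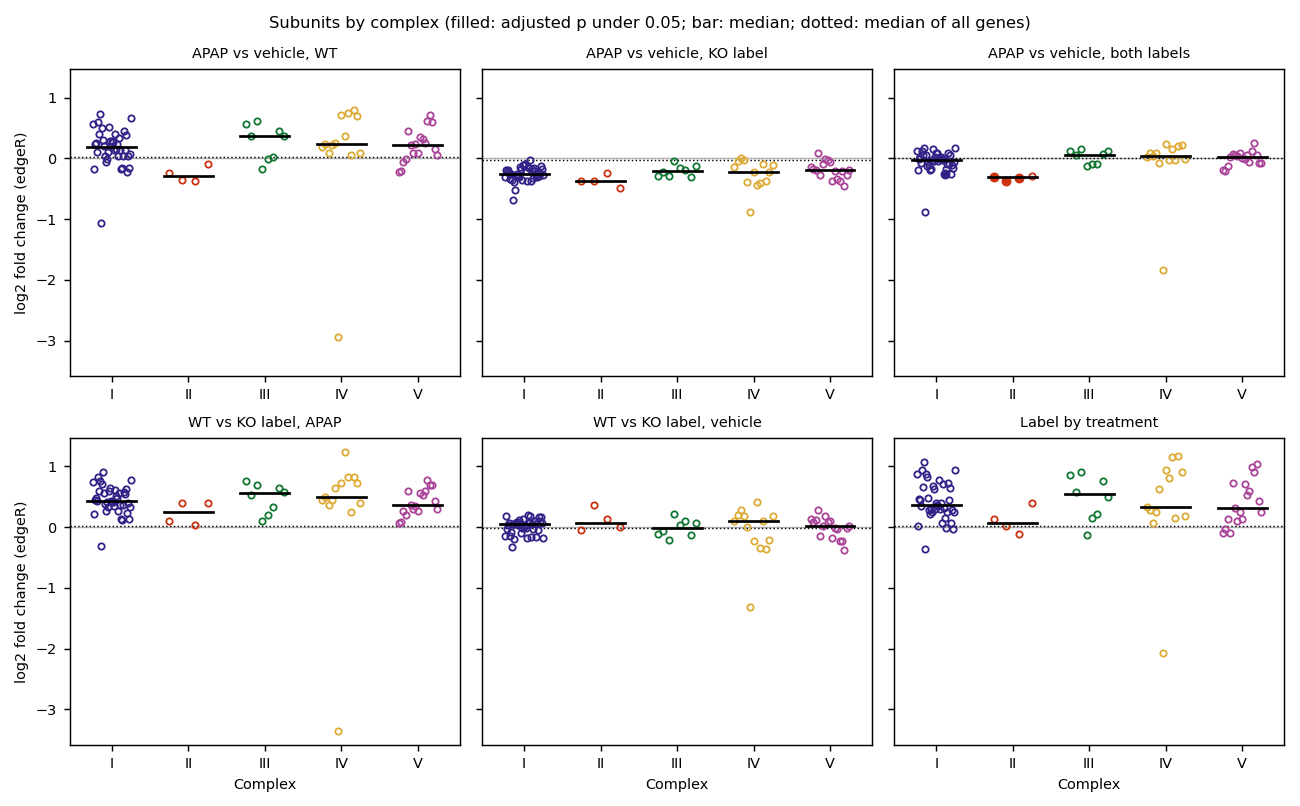
Log2 fold change of every tested member (points) by complex in the 6 comparisons, filled where the adjusted p was under 0.05, with the median of each complex as a bar and the median of all genes tested as a dotted line. In WT livers the medians of complexes I, III, IV and V lie above 0 (0.18 to 0.37) and that of complex II below (-0.30), and under the KO label all 5 lie below 0.

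The sign of complexes I, III, IV and V in WT livers turned when the first APAP library was left out. Without it and the third vehicle library labelled KO, the WT medians were -0.25 for I, -0.44 for II, -0.19 for III, -0.21 for IV and -0.23 for V, and 72 of 81 members lay below 0. In livers labelled KO the same omission took the medians to -0.04, -0.31, -0.02, 0.05 and 0.04. With the length trend removed in all 12 libraries, the WT medians were -0.10, -0.32, 0.00, -0.09 and -0.11 and those under the KO label -0.16, -0.35, -0.11, -0.03 and -0.12. The complex II median was below 0 in every one of these fits, and a direction for the other complexes in WT livers depended on the libraries. Across the members the Spearman correlation between length and fold change was -0.60 in WT livers and 0.20 under the KO label, with -0.11 and 0.05 over all genes. Genes of every kind under 1000 bases had a median of 0.30 in WT livers, where the members of that length had 0.26. In livers labelled KO the medians were -0.06 for such genes and -0.27 for such members.

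**Figure D5:**
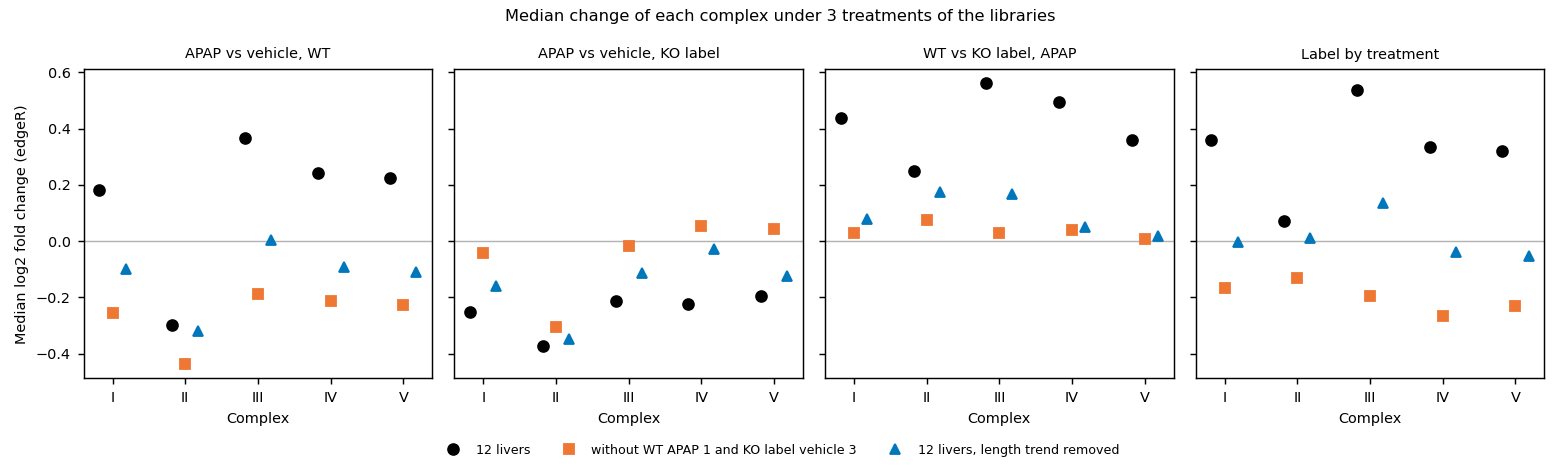
Median log2 fold change of the tested members of each complex in 4 comparisons, with all libraries, without the first WT APAP library and the third vehicle library labelled KO, and with the length trend removed. For APAP against vehicle, complex II stays below 0 throughout (-0.30, -0.44 and -0.32 in WT livers), while the other complexes move from above to about or below 0 in WT livers.

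*Ndufs1* was the only complex I member that passed over both labels by edgeR with all 12 livers, the other fits being given above. The 7 core subunits that carry flavin, iron-sulfur clusters and the ubiquinone site were all below 0. *Ndufs7*, a core iron-sulfur subunit, had CPM of 64.5, 66.2 and 63.8 in WT vehicle livers and 67.4, 55.1 and 43.0 after APAP, and 49.3, 65.1 and 60.0 against 43.9, 50.1 and 48.3 under the KO label. The WT groups overlapped through the first APAP library and those labelled KO through the first vehicle library, and the log2 fold change was -0.26 ± 0.11 (adjusted p = 0.11). *Ndufa10*, an accessory subunit, was at -0.20 ± 0.10 (adjusted p = 0.15). *Ndufa4l2*, a *Ndufa4* paralog known as a hypoxia-induced gene, had 54, 29 and 41 counts in WT vehicle livers, 20, 51 and 5 after APAP, and under the KO label 44, 49 and 30 against 24, 44 and 23. Its log2 fold change was -0.88 ± 0.40 (adjusted p = 0.12), the groups overlapped, and it gave 0.0130% to 0.283% of the summed TPM of itself and *Ndufa4*.

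The most abundant member of the *Nduf* group, *Ndufa4*, was highest in the 2 libraries in which short members lay high. Its TPM were 638, 671 and 598 in WT vehicle livers, 1147, 635 and 837 after APAP, 655, 660.3 and 1077 in vehicle livers labelled KO and 727, 822 and 714 after APAP. The 2 highest values were those of the first WT APAP and the third vehicle liver labelled KO. Its log2 fold change was 0.73 ± 0.42 in WT (adjusted p = 0.41) and -0.36 ± 0.31 under the KO label (adjusted p = 0.44).

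Complex III had 0 of 8 members called over both labels by edgeR. *Uqcrc1* and *Uqcrc2*, which encode the core proteins, were at -0.12 ± 0.10 and -0.10 ± 0.11, *Uqcrfs1*, which encodes the Rieske iron-sulfur protein, at -0.10 ± 0.15, and the small subunit *Uqcrq* at 0.12 ± 0.22. *Uqcrc1* TPM were 219, 191 and 187 in WT vehicle livers and 125, 192 and 174 after APAP, and 193, 203 and 143 against 180.4, 201 and 214 under the KO label, with overlap in both. *Uqcrh*, the hinge protein and the highest of the complex at a mean of 394 TPM, was at 379.6, 375 and 343 TPM in WT vehicle livers and 534, 327 and 399 TPM after APAP, and at 345, 346 and 512 against 367, 414 and 389.8 TPM under the KO label. The highest APAP and vehicle values again belonged to those 2 libraries.

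Complex IV had 0 of 13 tested members called over both labels by edgeR. The small subunits *Cox6c*, *Cox7c* and *Cox7b* were at 0.24 ± 0.32, 0.22 ± 0.30 and 0.20 ± 0.33. *Cox7b* TPM were 188, 199.6 and 173 in WT vehicle livers, 347, 185 and 281 after APAP, 193, 193 and 329.6 in vehicle livers labelled KO and 209, 250.4 and 211 after APAP. *Cox4i1*, which encodes the regulatory subunit that binds adenine nucleotides, was at 581, 574 and 483 TPM in WT vehicle livers and 629, 537 and 438 TPM after APAP, and at 495, 579 and 505 against 501, 551 and 617 TPM under the KO label, with overlap in both and a log2 fold change of 0.02 ± 0.21 over both labels.

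Complex IV has tissue isoforms, and 1 isoform of most pairs gave nearly all of the transcripts in every liver. *Cox4i1* made up 99.9% to 100% of the *Cox4* pair, with *Cox4i2*, the oxygen-regulated isoform of lung, at most 0.106%. *Cox6a1* took nearly all of its pair, with the heart and muscle isoform *Cox6a2* at most 0.120%, and *Cox8a* took nearly all of its family. *Cox7a2* held a median of 56.4% (53.4% to 74.1%), *Cox7a2l*, which encodes a supercomplex assembly factor, 43.2% (25.1% to 45.9%), and the heart and muscle isoform *Cox7a1* 0.264% to 0.876%. The 5 striated muscle markers summed to 0 to 0.446 TPM.

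*Cox6b2*, the testis isoform of the *Cox6b* pair, varied widely among livers of a group. Its counts were 29, 13 and 495 in WT vehicle livers, 46, 17 and 17 after APAP, 657, 354 and 391 in vehicle livers labelled KO and 210, 15 and 731 after APAP. High and low values occurred together among the WT vehicle livers and among the APAP livers labelled KO, and its share of the pair ran from 0.157% to 9.68%. Its log2 fold change over both labels was -1.83 ± 0.93 (adjusted p = 0.17) and in WT livers -2.94 ± 1.32 (adjusted p = 0.30).

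Complex V had 0 of 17 members called over both labels by edgeR, and *Atp5a1* was called lower by DESeq2. *Atp5a1* and *Atp5b*, the α and β subunits that form the catalytic head, were both at -0.20 ± 0.10 (adjusted p = 0.16). *Atp5a1* CPM were 912, 949 and 896 in WT vehicle livers and 818, 773 and 741 after APAP, and 814, 883 and 809 against 668, 797 and 791 under the KO label, with no overlap in either. *Atp5b* CPM were 1091, 1054 and 1079 in WT vehicle livers and 1012, 883 and 881 after APAP, with no overlap, and 891, 1089 and 1046 against 803, 914 and 929.5 under the KO label, with overlap. On TPM both genes overlapped under both labels. *Atp5c1*, the central stalk subunit, was at -0.13 ± 0.14 and the small subunit *Atp5md* at 0.25 ± 0.32. The proton-carrying c subunit is made from 3 genes with the same mature protein, and *Atp5g3* gave a median of 54.1% (50.9% to 58.1%) of their TPM, *Atp5g1* 23.5% and *Atp5g2* 22.4%. In the *Ndufb4* family, *Ndufb4b* gave 6.04% and *Ndufb4c* 6.79%, and how reads were divided among such near-identical copies is uncertain.

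No member passed the test between genotype labels. After APAP, edgeR called 0 members higher and 0 lower in WT than under the KO label, against 0.0124% and 0.0185% of 16174 genes, and with vehicle it called 0 and 0, against 0.0131% in each direction of 15262 genes. At an unadjusted p under 0.05 there were 1 higher and 1 lower after APAP, against 3.31% of genes, and 0 with vehicle, against 7.56%. The 2 were *Ndufa6*, an accessory subunit, at 0.91 ± 0.36 (adjusted p = 0.96) and *Cox6b2* at -3.35 ± 1.14 (adjusted p = 0.96). *Ndufa6* CPM were 183, 64.5 and 90.0 in WT APAP livers and 53.2, 67.6 and 61.4 in APAP livers labelled KO, so the high value was again that of the first WT APAP library. DESeq2 and limma also called 0 members in these comparisons.

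For the label by treatment interaction, edgeR called 0 members in each direction, as for all 16509 genes tested (0% higher and 0% lower), with 0 at an unadjusted p under 0.05 against 5.14% of genes, and DESeq2 and limma called 0. The medians differed more between labels, and moved with the libraries. After APAP the median member was 0.44 log2 higher in WT, where all genes were at 0.02, and 79 of 81 lay above 0. Without the 2 libraries the median was 0.03, and with the length trend removed 0.07. The interaction median went from 0.35 to -0.21 and -0.03 in the same order. With vehicle the median was 0.04 with all libraries, 0.20 without the 2 and 0.04 with the trend removed. For complex II the interaction median was 0.07 with all libraries and -0.13 without the 2.

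Factors that assemble the complexes, which are not members, were read from lists over both labels with edgeR. For complex I, 3 of 16 were lower and 0 higher, *Ecsit* at -0.39 ± 0.09 (adjusted p = 0.00844), *Timmdc1* at -0.23 ± 0.08 (adjusted p = 0.040) and *Acad9* at -0.25 ± 0.09 (adjusted p = 0.0499). For complex II, 1 of 4 was lower, *Sdhaf2*, which attaches the flavin to the *Sdha* protein, at -0.27 ± 0.09 (adjusted p = 0.038). For complex III, 2 of 6 were lower, *Bcs1l*, which inserts the Rieske protein, at -0.44 ± 0.10 (adjusted p = 0.0051) and *Uqcc1* at -0.29 ± 0.08 (adjusted p = 0.020). For complex IV, 5 of 20 were lower and 1 higher. *Taco1*, a translation activator of a mitochondrial subunit, was at -0.54 ± 0.14 (adjusted p = 0.012) and *Coa6*, a copper chaperone, at -0.47 ± 0.13 (adjusted p = 0.015), while *Cox18*, a membrane insertase, was higher at 0.45 ± 0.11 (adjusted p = 0.010). For complex V, 0 of 3 were called. Without the first WT APAP library and the third vehicle library labelled KO, *Timmdc1* (adjusted p = 0.057), *Acad9* (adjusted p = 0.063), *Sdhaf2* (adjusted p = 0.070) and *Coa6* (adjusted p = 0.055) were no longer called, while *Ecsit*, *Bcs1l*, *Uqcc1*, *Taco1* and *Cox18* were. *Sdhaf2* was also not called without the filter on low counts, with the replicate block or in 9 of the 12 fits that left out 1 liver. Beside these counts stand the 11.7% of genes lower and 14.0% higher at large.

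Among regulators of mitochondrial gene expression, 4 of 16 were higher and 3 lower over both labels by edgeR. Of all genes tested 14.0% were higher and 11.7% lower, and these shares stand beside every count in this paragraph. *Sirt1*, a deacetylase, rose by 1.70 ± 0.18 (adjusted p = 5.18e-05), *Nrf1*, a transcription factor of respiratory genes, by 0.60 ± 0.11 (adjusted p = 0.00192) and *Pprc1*, a coactivator, by 1.05 ± 0.26 (adjusted p = 0.011). *Tfb1m*, a mitochondrial ribosomal RNA methyltransferase, was lower at -0.68 ± 0.15 (adjusted p = 0.0053). Of 12 mitochondrial chaperones and proteases, 3 were higher and 0 lower, *Hspe1* by 1.12 ± 0.18 (adjusted p = 0.000778), its partner chaperonin *Hspd1* by 0.95 ± 0.21 (adjusted p = 0.0058) and *Hspa9* by 0.37 ± 0.10 (adjusted p = 0.016). Among 11 tested electron carriers and other donors, 1 was higher and 1 lower, *Pdss1* at 0.78 (adjusted p = 0.013) and *Pdss2* at -0.32 (adjusted p = 0.044), the paired subunits of the enzyme that makes the ubiquinone tail. Of 6 tested genes of the hypoxia switch, *Hif1a* was higher at 0.89 ± 0.13 (adjusted p = 0.00045) and *Pdk1* lower at -0.93 ± 0.19 (adjusted p = 0.0038). Without the same 2 libraries *Pdss2* was no longer called (adjusted p = 0.056), and the other regulators, chaperones and genes named with it were.

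Cell type markers were read over both labels beside these results, where 14.0% of all genes tested were higher and 11.7% lower. Among them, 0 of 6 for hepatocytes, 0 of 5 for Kupffer cells and 0 of 5 for erythroid cells were called, 1 of 5 for neutrophils (*Cxcr2*, higher), 2 of 5 for endothelial cells (*Lyve1* and *Pecam1*, higher) and 1 of 5 for stellate cells (*Lrat*, lower). All 5 neutrophil markers were higher at an unadjusted p under 0.05 by edgeR, against 37.4% of genes in either direction. Their median log2 fold change was 2.79. All 5 erythroid markers lay above 0 over both labels, with a median of 2.00, but below 0 under the KO label, with a median of -0.50. In WT livers the erythroid transcripts summed to 28806, 990 and 752 TPM after APAP and to 657 to 841 TPM with vehicle. The high value was that of the first WT APAP library alone. Without the 2 libraries *Cxcr2* (adjusted p = 0.16) and *Lrat* (adjusted p = 0.11) were not called, and *Lyve1* and *Pecam1* were. Their part in the values above was not tested. The 13 subunits encoded by mitochondrial DNA summed to 95735 to 149568 TPM, 9.57% to 15.0% of all TPM, and 0 were called in any comparison. The share of all genes called ran from 0% for the interaction to 14.0% higher and 11.7% lower over both labels. The 0 says little in comparisons where that share was near 0. The median log2 fold change of the 13 subunits after APAP was 0.02 in WT livers and -0.22 under the KO label.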

How the data were processed

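Liver RNA-seq of 12 separate livers, 3 per group, was read from 1 table of 45777 genes on mm10 (GRCm38). The authors deposited raw whole-number counts per gene. They also deposited FPKM, which divide by transcript length and library size, and the deposited TPM share 1 total per library. The submitters' processing notes name FastQC 0.11.7, Trimmomatic 0.38, HISAT2 2.1.0, Bowtie2 2.3.4.1 and StringTie 2.1.3b, without settings, and the kit was stranded. All per-sample columns were assigned (0 were not), and each liver took its group from its own label.

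Counts were TMM scaled and tested with edgeR 4.0.16 (quasi-likelihood, filterByExpr) in R 4.3.3 across the whole table. P-values were adjusted by Benjamini-Hochberg over every gene tested, and called under 0.05. The SE of an edgeR log2 fold change was worked back from the test, as its absolute value over the square root of F. Fits within a label used its 6 livers, and those over both labels and for the interaction used all 12. DESeq2 1.42.0, limma 3.58.1 on log2(TPM + 1) and log2(TPM + 0.1), other scaling and filters, a replicate block and leaving out each liver were alternatives. Leaving out the 2 libraries in which short members lay highest, removing each library's length trend by an offset, and summing CPM were chosen after the data were seen. Implied lengths came from counts and FPKM, and for 3250 genes with 1 RefSeq transcript 69.78% lay within 5% of it. Same-numbered livers deviated together by correlations of -0.40 to 0.03, so the numbers do not pair them. Each fit was tested on simulated data with 200 changed genes.

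Named genes were the called members (at most 12 per direction), in each complex the 4 with the smallest unadjusted p over both labels and the highest by mean TPM, all isoform families, and at most 4 genes per other list. *Ndufa6* and other members named for a non-overlap or an unadjusted p were named after their values were seen. The members and lists were chosen with earlier results of these data known.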

Additional observations from a re-analysis of the deposited data

How the results depend on the processing

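Over both labels the count of members lower after APAP, 4, was 2 with the size factors of DESeq2, 0 without the filter on low counts, 0 with the replicate block, 7 with the length trend removed and 0 to 8 with 1 liver left out at a time. It was 4 with at least 10 counts in every library, 5 by DESeq2's Wald test and 5 without the first WT APAP library and the third vehicle library labelled KO. Under the KO label the count of lower members, 0, was 2 by DESeq2's Wald test, 1 by limma on log2(TPM + 1) and 3 with the length trend removed. With vehicle, leaving out 1 liver gave 0 to 1 member lower in WT, *Cox6b2* without the third WT vehicle liver. For *Sdha*, *Sdhb*, *Sdhc* and *Ndufs1*, each alternative fit of APAP against vehicle was compared with its main fit, within each label and over both. Of these results for 4 genes, 159 kept direction and side of the threshold, 51 kept the direction but lost the call and 2 gained one. Within labels the main fits called 0 members, so a call could be lost over both labels alone. The 159 therefore include fits in which there was no call to lose. The replicate numbers do not pair the livers, so the call count of 0 under the block is not read as a weaker effect. None of these called genes changed direction, and the causes of the changed counts were not tested. The counts of members under the alternatives stand without the share of all genes called in the same fit.

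With 3 livers per group and fold changes of about 0.3 log2, single calls sit near the threshold, and 0 calls within a label do not show that the members were the same. Length trends of either sign occurred in several libraries, and leaving out the 2 in which short members lay highest is 1 choice among others.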
